A study of Mus musculus with 4 samples.

Results

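The miRNAs described here are those that vertebrate surface epithelia are best known for: the 5 guide arms of the miR-200 family (mmu-miR-200a-3p, mmu-miR-200b-3p, mmu-miR-200c-3p, mmu-miR-141-3p and mmu-miR-429-3p), mmu-miR-184-3p, mmu-miR-203-3p and mmu-miR-205-5p, written below without the species prefix. They were chosen by name, 8 arms in all against 1326 miRNAs listed for the series. Of the 8, 7 had a row in the table of counts and miR-205-5p was not analysed here. Of these 7, 3 reached 10 counts in at least 2 libraries and were tested, and 4 stayed under that filter and are given as counts with their detection limits.

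The libraries hold small RNA of 18 to 30 nt from the retina of E18.5 mouse embryos, 2 from Ptf1a-/- embryos and 2 from Ptf1a+/- embryos. Every group thus carries at least 1 mutant Ptf1a allele, and no wild-type retina was compared. Ptf1a encodes a transcription factor that retinal progenitors need to form amacrine and horizontal cells. The labels name neither the allele nor the number of animals behind a library, so p-values measure the spread between libraries, which may be technical, and in whole tissue fewer cells of a type and less RNA per cell cannot be told apart. The Ptf1a-/- libraries summed to 3658490 and 3917069 counts over the listed miRNAs (replicates 1 and 2), the Ptf1a+/- libraries to 3647145 and 4385834. The pair within a genotype differed from read sampling by a chi-square per degree of freedom of 8.68 in Ptf1a-/- and 1.11 in Ptf1a+/- (miRNAs with 20 to 2000 counts per pair), so the Ptf1a+/- libraries lie unusually close together. Over all miRNAs with 20 or more counts the value was 120 in Ptf1a-/- and 1.85 in Ptf1a+/-. There the Ptf1a+/- pair differed beyond sampling noise (p = 5.13e-32, chi-square test of counts). That spread may be technical, so it does not show that the Ptf1a+/- libraries come from separate animals. Both libraries were kept. Neural retina miRNAs were abundant in every library, miR-9-5p for example at 218605 and 284808 CPM in Ptf1a-/- and 193585 and 193725 CPM in Ptf1a+/-. Over all 584 miRNAs tested, 3.6% were called lower and 6.16% higher, and none of the 5 neural markers was called. Among these, miR-96-5p was called lower with library size as the only scaling (edgeR adjusted p = 0.0419) and with the deposited totals (0.0297). Its log2 fold changes were -0.538 and -0.695 there, at medians of -0.177 and -0.335 for all miRNAs. The other neural markers were not called under either scaling. On these scalings miR-183-5p stood at 0.272 and 0.111, and miR-182-5p at 0.148 and -0.017. miR-9-5p stood at 0.179 and 0.021, and miR-124-3p at -0.309 and -0.458. CPM here means counts scaled to a common library total with TMM factors, a scaling that evens out differences in composition between libraries, unless another total is named.

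The miR-200 family is known for holding cells in an epithelial state, since its members repress the transcription factors Zeb1 and Zeb2, which in turn repress E-cadherin and the miR-200 genes themselves. miR-184 is abundant in the corneal and lens epithelium, miR-203 restrains p63 and stem cell character in the epidermis, and miR-205 marks stratified epithelia of the skin and ocular surface. The neural retina is not a surface epithelium, but the ciliary epithelium, the lens and the cornea lie next to it in the eye.

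A miRNA recognises its targets mainly through bases 2 to 8, the seed, shown in capitals in the mature sequences below (RefSeq, GRCm38.p6, 5′ to 3′), because the seed decides which members of the family can act on the same sites.
miR-200b-3p: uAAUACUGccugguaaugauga
miR-200c-3p: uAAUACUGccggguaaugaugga
miR-429-3p: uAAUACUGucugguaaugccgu
miR-200a-3p: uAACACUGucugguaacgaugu
miR-141-3p: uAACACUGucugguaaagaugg
miR-184-3p: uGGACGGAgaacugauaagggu
miR-203-3p: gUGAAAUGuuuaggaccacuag
miR-205-5p: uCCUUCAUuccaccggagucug
The first 3 share the seed AAUACUG and the next 2 the seed AACACUG, which differ by U4C when read from miR-200b-3p to miR-200a-3p (positions from 1 at the 5′ end). miR-200c-3p differs from miR-200b-3p by U11G and A22G and by its length of 23 rather than 22 bases, and none of these positions is in the seed. Of the 1326 listed miRNAs, 1120 had a RefSeq sequence, and among these no further miRNA carried either miR-200 seed or the seed of miR-184, miR-203 or miR-205. All counts of the 7 members were whole numbers, while 5.73 to 7.84% of the values in each library were not.

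The family comes from clusters on different chromosomes. Mir200b (chr4:156055681-156055750), Mir200a (chr4:156054896-156054985) and Mir429 (chr4:156053905-156053987) lie within 1846 bases on the minus strand of GRCm38.p6, in introns of the protein-coding gene Ttll10, and Mir429 also overlaps an exon of the noncoding transcript Gm13648. Mir200c (chr6:124718322-124718390) and Mir141 (chr6:124717914-124717985) lie within 477 bases on the minus strand, in an intron of Gm15884, and Mir141 also overlaps an exon of the gene model Gm29008. Mir184 (chr9:89802260-89802328, minus strand) and Mir203 (chr12:112130880-112130955, plus strand) lie in no other annotated gene of GENCODE M21.

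miR-184-3p and miR-203-3p made up nearly all of the counts of these miRNAs, and the miR-200 family was close to the detection limit. The 7 members together held 890 and 981 counts in Ptf1a-/-, against 1192 and 1385 in the Ptf1a+/- libraries, or 0.0243 and 0.0250% against 0.0327 and 0.0316% of the listed counts. miR-184-3p and miR-203-3p took 98.7 and 99.2% of these counts in Ptf1a-/- and 96.9 and 97.0% in Ptf1a+/-. By level, miR-184-3p ranked 197 and 155 in the Ptf1a-/- libraries, against 158 in each Ptf1a+/- library. miR-203-3p lay in the same part of the list, with every rank between 155 and 204. The most abundant arm of the miR-200 family ranked 593 and 633 in Ptf1a-/-, where it was miR-200c-3p, and 452 and 447 in Ptf1a+/-, where it was miR-200b-3p. Ligation and gel cuts favour some sequences over others, so an order between different miRNAs is less firm than 1 miRNA compared between libraries.

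**Figure D1:**
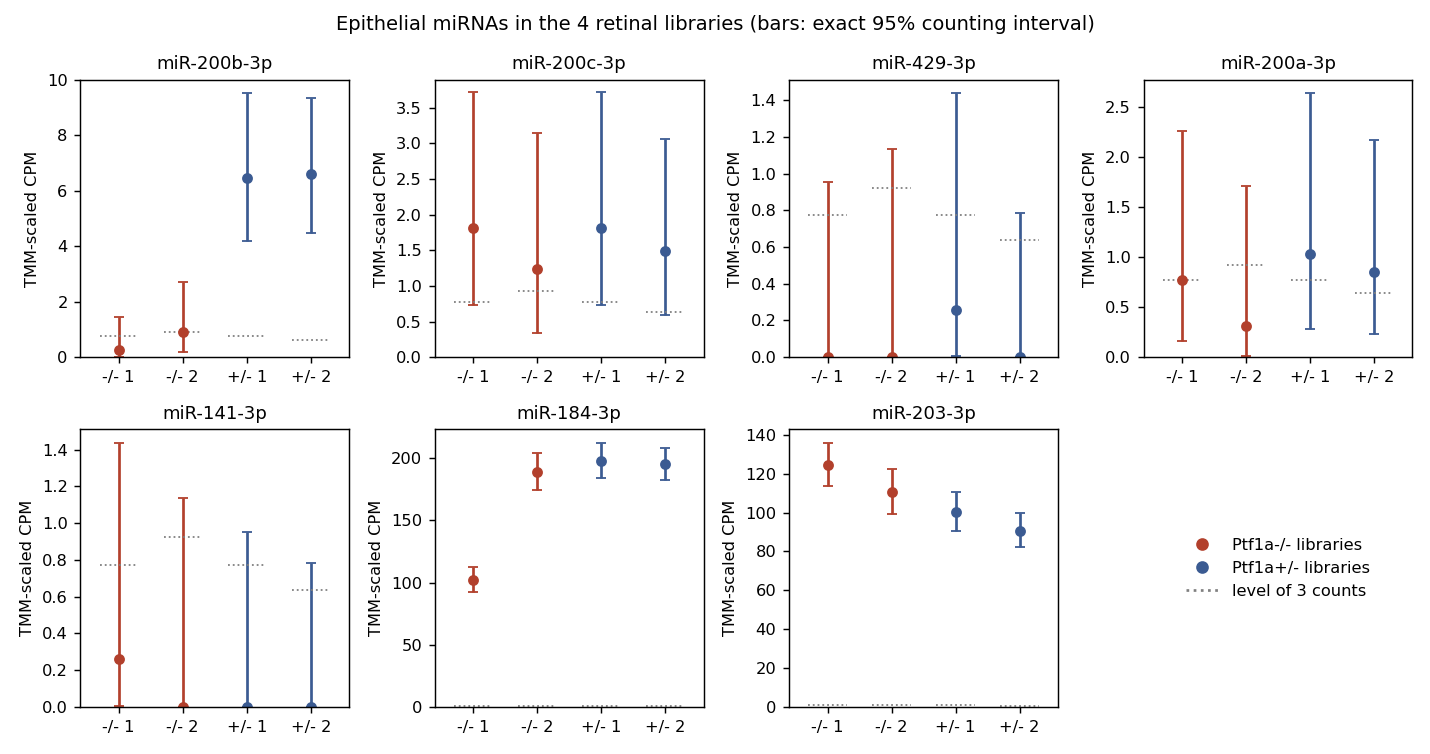
TMM-scaled CPM (y axis, from 0) of the 7 members in each library (x axis, Ptf1a-/- left of Ptf1a+/-), with exact 95% counting intervals and a dotted line at the level of 3 counts. miR-200b-3p stands at 0.258 and 0.924 CPM in Ptf1a-/- and 6.46 and 6.60 CPM in Ptf1a+/-, while miR-200c-3p, miR-200a-3p, miR-429-3p and miR-141-3p have overlapping intervals.

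Within the miR-200 family, miR-200b-3p was lower in Ptf1a-/- retinas. It had 1 and 3 counts in Ptf1a-/-, against 25 and 31 counts in the Ptf1a+/- libraries, that is 0.258 and 0.924 CPM against 6.46 and 6.60 CPM. The groups did not overlap, and their counting intervals did not meet either, from 0.00654 to 2.70 CPM over the Ptf1a-/- libraries and from 4.18 to 9.53 CPM over the Ptf1a+/- libraries. The mean was 0.591 ± 0.471 CPM in Ptf1a-/- and 6.53 ± 0.0971 CPM in Ptf1a+/- (SD, n = 2 each). On summed counts, 4 against 56, the ratio was 0.0860 with an exact 95% counting interval of 0.0226 to 0.233. The fitted log2 fold change was -3.47 ± 0.49 (SE; edgeR quasi-likelihood test, Benjamini-Hochberg adjusted p = 0.0124), the 4th lowest of 584 miRNAs tested. miR-200b-3p passed the count filter through the Ptf1a+/- libraries alone, so it could only enter the test as a miRNA that is higher there. The call was lost with the Ptf1a+/- pair summed into 1 library (log2 fold change -3.48) and without Ptf1a+/- replicate 2 (-3.44). Without Ptf1a-/- replicate 1 the log2 fold change was -2.78, and without Ptf1a-/- replicate 2 it was -4.49. Each of these last fits has 1 Ptf1a-/- library and takes all of its spread from the Ptf1a+/- pair.

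The other arms of the family gave no such difference at this depth. miR-200c-3p, which has the same seed, had 7 and 4 counts in Ptf1a-/-, against 7 and 7 in the Ptf1a+/- libraries, or 1.81 and 1.23 CPM against 1.81 and 1.49 CPM. The genotypes overlapped, with a ratio of summed counts of 0.946 and a counting interval of 0.389 to 2.24. miR-200a-3p, from the hairpin next to Mir200b, had 3 and 1 counts in Ptf1a-/- and 4 and 4 in Ptf1a+/-, which is a ratio of 0.602 (counting interval 0.133 to 2.25). Its levels were 0.774 and 0.308 CPM in Ptf1a-/- and 1.03 and 0.851 CPM in Ptf1a+/-. The level of 3 counts was 0.774 and 0.924 CPM in the Ptf1a-/- libraries, against 0.775 and 0.638 CPM in the Ptf1a+/- libraries. Ptf1a-/- replicate 2 thus lay below that level and the other libraries at or near it. Both Ptf1a-/- levels were below both Ptf1a+/- levels, as for 31.5% of the 584 miRNAs tested, but on at most 4 counts in a library. miR-429-3p, the third arm of that cluster, had no count in either Ptf1a-/- library and 1 and 0 in the Ptf1a+/- libraries. miR-141-3p had 1 and 0 counts in Ptf1a-/- and none in either Ptf1a+/- library. For these arms a difference was not detectable at this depth. The level of 3 counts is the limit that a count of 0 allows, while the exact 95% interval around a count of 0 reached 0.952 and 1.14 CPM in Ptf1a-/-, against 0.953 and 0.785 CPM in Ptf1a+/-. These intervals and limits cover counting error only, since no molecular identifiers are described and PCR copies count more than once.

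Taken by shared seed, the 3 arms with AAUACUG summed to 8 and 7 counts in Ptf1a-/- and 33 and 38 in Ptf1a+/-, or 2.07 and 2.16 CPM against 8.52 and 8.08 CPM. The ratio of summed counts was 0.254 with a counting interval of 0.135 to 0.448, and miR-200b-3p supplied 4 of 15 counts in Ptf1a-/- and 56 of 71 in Ptf1a+/-. The 2 arms with AACACUG summed to 4 and 1 counts in Ptf1a-/- and 4 and 4 in Ptf1a+/- (ratio 0.752, counting interval 0.194 to 2.61). With miR-200b-3p left out, the 4 remaining arms summed to 11 and 5 counts in Ptf1a-/- and 12 and 11 in Ptf1a+/-, a ratio of 0.837 (counting interval 0.413 to 1.66).

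Taken by cluster, the chromosome 4 hairpins gave 4 and 4 counts in Ptf1a-/- and 30 and 35 in Ptf1a+/- (ratio 0.148, counting interval 0.0614 to 0.310), and the chromosome 6 hairpins gave 8 and 4 against 7 and 7 (ratio 1.03, counting interval 0.436 to 2.40). Within the chromosome 4 cluster miR-200b-3p made up 50% of counts in Ptf1a-/- (4 of 8, exact 95% interval 15.7 to 84.3%) and 86.2% in Ptf1a+/- (56 of 65, 75.3 to 93.5%). Among all 5 arms its share was 20% in Ptf1a-/- (4 of 20, 5.73 to 43.7%) and 70.9% in Ptf1a+/- (56 of 79, 59.6 to 80.6%). The differences between these shares were not tested. The number of miR-200b-3p counts per miR-200c-3p count was 0.143 and 0.75 in the Ptf1a-/- libraries, against 3.57 and 4.43 in the Ptf1a+/- libraries. An exact two-sided permutation test of this ratio gave p = 0.333, the smallest that 2 libraries against 2 allow.

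**Figure D2:**
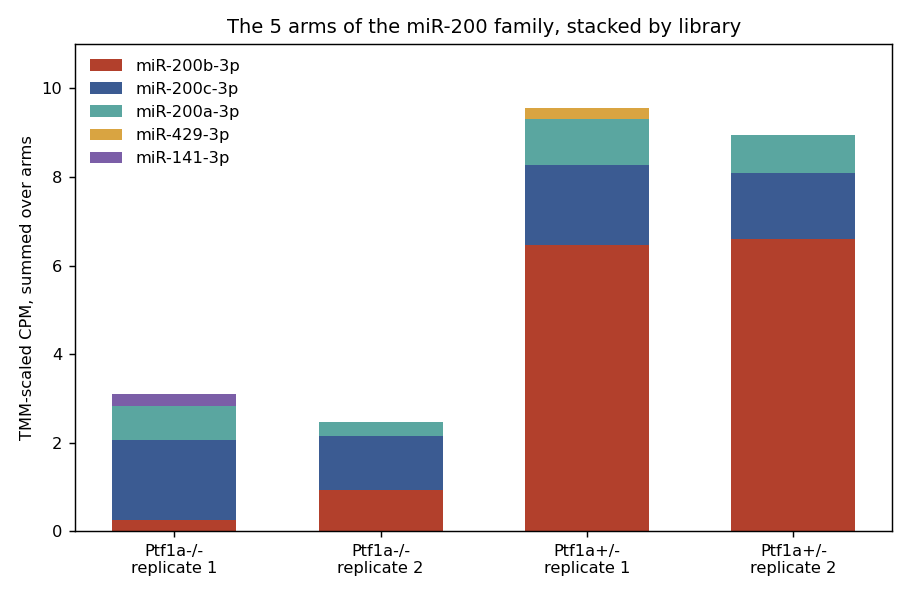
TMM-scaled CPM of the 5 miR-200 arms stacked for each library (y axis from 0; x axis, Ptf1a-/- left of Ptf1a+/-). The stacks reach 3.10 and 2.46 CPM in Ptf1a-/- and 9.56 and 8.94 CPM in Ptf1a+/-, and the part without miR-200b-3p reaches 2.84 and 1.54 against 3.10 and 2.34 CPM.

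The deposited table of most frequent sequences shows which forms were read, and it is printed here for miR-200b-3p because its usual form was not the reference one. In the lines below, capitals mark bases added beyond the mature sequence, and the Mir200b hairpin from RefSeq has the mature arm in capitals.
Ptf1a-/- replicate 1: taatactgcctggtaatgatgaC
Ptf1a-/- replicate 2: taatactgcctggtaatgatg
Ptf1a+/- replicates 1 and 2: taatactgcctggtaatgatgaCT
Mir200b hairpin: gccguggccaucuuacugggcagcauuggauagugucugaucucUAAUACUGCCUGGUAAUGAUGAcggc
Both Ptf1a+/- libraries had a form of 24 bases with CT at its 3′ end, of which the hairpin encodes the C but has G in place of the T. The forms in Ptf1a-/- had 23 and 21 bases and rest on 1 and 3 counts of all forms together, so no difference in form can be read from them. The seed was intact in all 4 libraries. No partner arm from the 5′ side of a miR-200 hairpin was analysed here.

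miR-184-3p, with the highest level of these miRNAs in the Ptf1a+/- libraries, stood apart in 1 Ptf1a-/- library. It had 396 and 614 counts in Ptf1a-/-, against 767 and 917 in the Ptf1a+/- libraries, or 102 and 189 CPM against 198 and 195 CPM. Ptf1a-/- replicate 1 lay far below the other 3 libraries, and replicate 2 lay just below the Ptf1a+/- pair. Set against the Ptf1a+/- mean on the log2 scale they stood at -0.94 and -0.056. The mean was 146 ± 61.4 CPM in Ptf1a-/- and 197 ± 2.15 CPM in Ptf1a+/- (SD, n = 2 each), and the log2 fold change of -0.44 ± 0.28 (SE) did not pass (edgeR adjusted p = 0.388). Without Ptf1a-/- replicate 2 it was -0.92 with an adjusted p of 3.77e-28, and without Ptf1a-/- replicate 1 it was -0.055 with an adjusted p of 0.548. Each of these fits has 1 Ptf1a-/- library and takes all of its spread from the closely matched Ptf1a+/- pair. In the deposited CPM, which divide by a larger total, miR-184-3p stood at 83.7 and 113 in Ptf1a-/- and 174.5 and 175 in Ptf1a+/-. With those totals the log2 fold change was -0.82 (adjusted p = 0.0747), at a median of -0.33 for all miRNAs. The most frequent sequence was the mature sequence in all 4 libraries.

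miR-203-3p had a positive fold change that did not pass either. It had 482 and 359 counts in Ptf1a-/-, against 388 and 426 in the Ptf1a+/- libraries, or 124 and 111 CPM against 100.2 and 90.6 CPM. Both Ptf1a-/- libraries were above both Ptf1a+/- libraries on this scale. The mean was 117 ± 9.81 CPM in Ptf1a-/- and 95.4 ± 6.79 CPM in Ptf1a+/- (SD, n = 2 each), with a log2 fold change of 0.30 ± 0.14 (SE, edgeR adjusted p = 0.244). In the deposited CPM the genotypes overlapped, with 102 and 66.1 in Ptf1a-/- and 88.2 and 81.3 in Ptf1a+/-, and with those totals the log2 fold change was -0.022. Relative to the median of all miRNAs it was 0.31 on either scaling. Without Ptf1a-/- replicate 2 it was 0.41 (adjusted p = 1.87e-05), in a fit that again takes its spread from the Ptf1a+/- pair. The number of miR-203-3p counts per miR-184-3p count, which no scaling touches, was 1.22 and 0.585 in Ptf1a-/- and 0.506 and 0.465 in Ptf1a+/- (exact two-sided permutation p = 0.333, the smallest possible here).

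The form of miR-203-3p differed between libraries, and it is shown because a shifted 5′ end moves the seed. Capitals mark a base added to the mature sequence.
Ptf1a-/- replicate 1: tgaaatgtttaggaccactagT
Ptf1a-/- replicate 2: gtgaaatgtttaggaccactag
Ptf1a+/- replicates 1 and 2: gtgaaatgtttaggaccact
In Ptf1a-/- replicate 1 the most frequent form lacked the first base and carried a 3′ T that the hairpin does not encode, so its bases 2 to 8 read GAAATGT instead of TGAAATG. Ptf1a-/- replicate 2 had the mature sequence, and both Ptf1a+/- libraries had a form shorter by 2 bases at the 3′ end. The table names the most frequent form without its count, so how far it led the next form is unknown.

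The Mir203 locus is also read from the other strand. miR-203b-3p comes from the minus strand at chr12:112130887-112130908 and is the reverse complement of bases 8 to 29 of the Mir203 hairpin, shown here with the miR-203-3p arm (bases 48 to 69) in capitals.
Mir203 hairpin: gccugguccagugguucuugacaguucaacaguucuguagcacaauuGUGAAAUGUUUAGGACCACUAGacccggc
miR-203b-3p had 26 and 15 counts in Ptf1a-/-, against 16 and 26 in the Ptf1a+/- libraries, with overlapping levels of 6.71 and 4.62 CPM against 4.13 and 5.53 CPM (log2 fold change 0.23 ± 0.34, adjusted p = 0.75). The partner arm miR-203-5p had 1 and 1 counts in Ptf1a-/- and 0 and 3 in Ptf1a+/-, at or under the level of 3 counts in each library. No other partner arm of the 8 members was analysed here.

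Of the 3 members tested, 1 was called lower and none higher at an adjusted p under 0.05, against 3.6% of all 584 miRNAs called lower and 6.16% called higher (21 and 36 miRNAs, against 12 lower and 4 higher with library size as the only scaling). With 3 members, 1 of which could enter only from the side where it was called, this share says nothing about the list. Both Ptf1a-/- libraries were below both Ptf1a+/- libraries for miR-200b-3p and miR-184-3p and above them for miR-203-3p, as they were for 31.5% and 26.7% of all 584 miRNAs. The median log2 fold change of these 3 was the -0.44 of miR-184-3p, which was not called, beside -0.003 over all 584. With 3 members this median says nothing about a shift of the list.

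**Figure D3:**
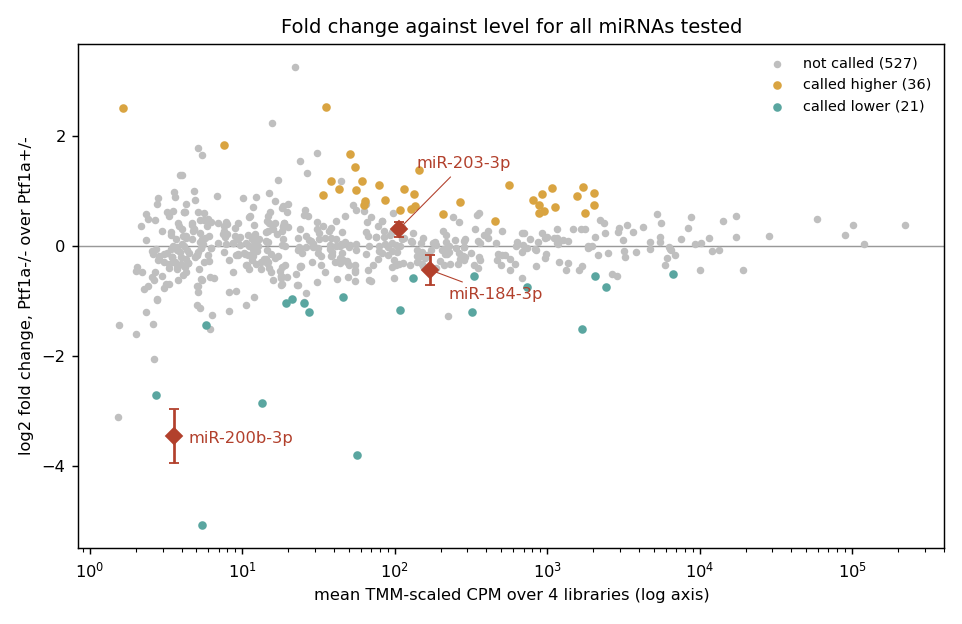
Log2 fold change of Ptf1a-/- over Ptf1a+/- (y axis) against mean TMM-scaled CPM (x axis, log scale) for the 584 miRNAs tested, with the 3 tested members as red diamonds with SE bars. miR-200b-3p lies among the low-count miRNAs at -3.47, while miR-184-3p and miR-203-3p lie at -0.44 and 0.30 among miRNAs that were not called.

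Further miRNAs of other epithelia were read as a list of 12: those of gut epithelium (miR-192-5p, miR-194-5p, miR-215-5p), of ciliated epithelium (miR-34b-5p, miR-34c-5p, miR-449a-5p, miR-449c-5p), of neuroendocrine cells (miR-375-3p) and others (miR-31-5p, miR-224-5p, miR-452-5p, miR-203-5p). Of the 11 tested, none was called in either direction, beside 3.6% called lower and 6.16% called higher over all 584 miRNAs. At those shares, no call among 11 says nothing about the list. Their edgeR adjusted p ran from 0.107 to 0.997, with a median log2 fold change of -0.004. Of the 11, 2 had a raw p under 0.05. miR-449c-5p, of the multiciliated cell family, had 6 and 4 counts in Ptf1a-/- and 13 and 15 in Ptf1a+/- (log2 fold change -1.20 ± 0.37, edgeR adjusted p = 0.107). Like miR-200b-3p, it passed the count filter through the Ptf1a+/- libraries alone, so it could only enter the test as higher there. miR-375-3p, known from pancreatic islet and neuroendocrine cells, had 18.8 and 58.2 CPM in Ptf1a-/- and 13.9 and 16.0 CPM in Ptf1a+/- (log2 fold change 1.33 ± 0.54, adjusted p = 0.194), so that Ptf1a-/- replicate 2 alone stood far above the rest. The abundant miR-192-5p had 875 and 1243 CPM in Ptf1a-/- and 949 and 947 CPM in Ptf1a+/- (log2 fold change 0.16 ± 0.18, adjusted p = 0.631).

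Markers of other tissues were set beside these results, list by list. Over all 584 miRNAs tested, 3.6% were called lower and 6.16% higher, so calls in such short lists say nothing about a list. Beside the lower miR-200b-3p, the 4 mesenchymal miRNAs summed to 42.6 and 43.4 CPM in Ptf1a-/- and 60.7 and 54.9 CPM in Ptf1a+/-, and 1 of the 2 tested, miR-199a-5p, was called lower (log2 fold change -1.05 ± 0.22, adjusted p = 0.0430). That call was lost with library size as the only scaling (edgeR adjusted p = 0.0649) and with the Ptf1a+/- pair summed (0.369). The log2 fold change of its partner arm miR-199a-3p was 0.03 (adjusted p = 0.943). The 3 pigment epithelium miRNAs summed to 3204 and 3566 CPM in Ptf1a-/- and 3690 and 3729 CPM in Ptf1a+/-. Of these, miR-204-3p was called lower (log2 fold change -0.54 ± 0.12, edgeR adjusted p = 0.0436). That call was lost with library size only (edgeR adjusted p = 0.059), with the deposited totals (0.0515) and with the pair summed. The abundant miR-204-5p (log2 fold change -0.09, edgeR adjusted p = 0.686) and miR-211-5p (-0.35, 0.509) were not called. Beside miR-184-3p, the 4 vessel and mural miRNAs summed to 352 and 587 CPM in Ptf1a-/- and 593 and 614 CPM in Ptf1a+/-. Most of each sum was miR-126a-3p (324 and 545 against 546 and 564 CPM), so the low sum in Ptf1a-/- replicate 1 mainly follows that miRNA. miR-143-3p was also lowest in that library, at 13.2 CPM. The partner arm miR-126a-5p was not lowest there, with 14.5 and 21.2 against 12.9 and 15.3 CPM (log2 fold change 0.31, edgeR adjusted p = 0.530). None of the 3 vessel and mural miRNAs tested was called. Of these, miR-143-3p stood at 13.2 and 20.6 CPM in Ptf1a-/-, both below its 33.8 and 34.3 CPM in Ptf1a+/- (log2 fold change -1.03 ± 0.25, edgeR adjusted p = 0.0638), and it was called lower with the library totals behind the deposited CPM (edgeR adjusted p = 0.0393). Among these markers miR-145a-5p, of smooth muscle, had a single count in 1 Ptf1a+/- library and none elsewhere. miR-451a, the defining miRNA of red blood cells, had at most 1 count in a library. The 4 blood cell miRNAs analysed summed to 63.8 and 96.4 CPM in Ptf1a-/- and 73.4 and 70.4 CPM in Ptf1a+/-. Nearly all of each sum was miR-486a-5p (63.5 and 95.8 against 72.8 and 69.8 CPM), the only 1 of the 4 that was tested. The 3 striated muscle miRNAs summed to 65.1 and 70.2 CPM in Ptf1a-/- and 48.6 and 51.3 CPM in Ptf1a+/-. None was called in either list. The part of other tissue in the results on miR-200b-3p, miR-184-3p and miR-203-3p was not tested.

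The miRNAs whose pattern over the 4 libraries was closest to each tested member were found by the Euclidean distance between log2 CPM centred on each miRNA's mean. Since this uses 4 libraries, it is a description. Closest to miR-200b-3p were miR-196a-5p, encoded in the Hox clusters, with 0 and 2 counts in Ptf1a-/- and 13 and 10 in Ptf1a+/- (distance 0.80), miR-1934-5p with 3 and 2 against 18 and 23 (0.98), and miR-673-5p with 15 and 8 against 96 and 107 (1.04). The median distance of all miRNAs from miR-200b-3p was 2.84. Closest to miR-184-3p were miR-149-3p (distance 0.12), miR-126a-3p, the endothelial miRNA of Egfl7 (0.15), and miR-1964-3p (0.19), against a median of 0.92. miR-126a-3p had 324 and 545 CPM in Ptf1a-/- and 546 and 564 CPM in Ptf1a+/-, again with Ptf1a-/- replicate 1 alone far below the rest. Closest to miR-203-3p were miR-103-3p (distance 0.090), miR-770-5p (0.093) and miR-340-5p (0.11), against a median of 0.58. Of the 3 closest to miR-200b-3p, miR-1934-5p (edgeR adjusted p = 0.0153) and miR-673-5p (0.00937) were called lower and miR-196a-5p was not (0.0778). miR-196a-5p and miR-1934-5p, like miR-200b-3p, passed the count filter through the Ptf1a+/- libraries alone. None of the miRNAs closest to miR-184-3p or miR-203-3p was called (adjusted p from 0.121 to 0.416). Over all 584 miRNAs tested, 3.6% were called lower and 6.16% higher. The neighbours were chosen for their likeness to a member in these same 4 libraries. Whether they were called follows largely from that choice and says nothing further about the members.

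**Figure D4:**
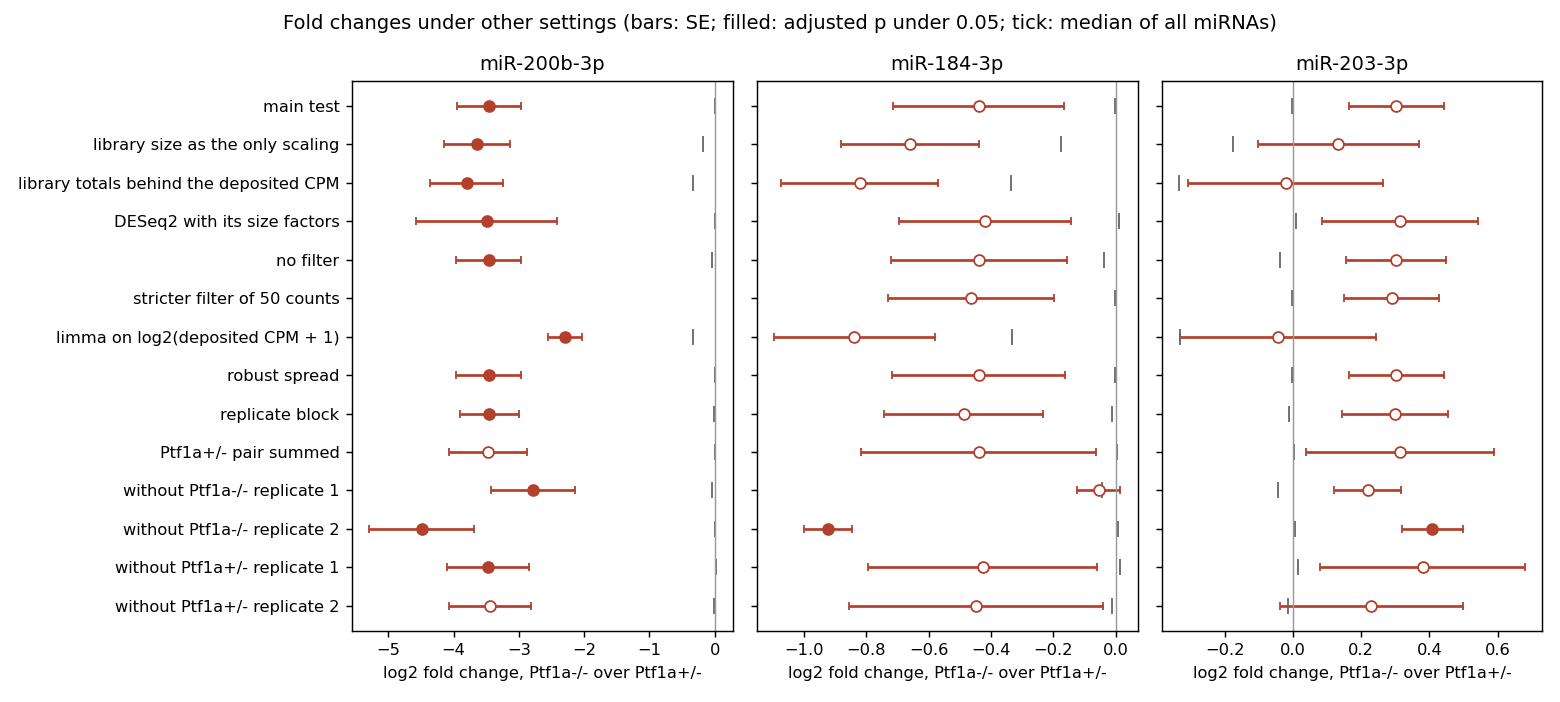
Log2 fold change of Ptf1a-/- over Ptf1a+/- (x axis, bars are SE) of the 3 tested members under the main test and each alternative (y axis), with filled points at an adjusted p under 0.05 and a grey tick at the median of all miRNAs. miR-200b-3p stays between -4.49 and -2.30, while miR-184-3p runs from -0.92 to -0.055 and miR-203-3p from -0.044 to 0.41.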

How the data were processed

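Small RNA from 4 mouse retina libraries was read from 3 deposited tables with a column per library. Genotype and replicate number come from the sample titles. Per the labels' protocols, a New England Biolabs kit turned gel-purified RNA (18 to 30 nt, from 1 µg of total RNA) into libraries, with a second gel cut of the cDNA at 60 to 80 nt. The submitters' processing notes name bcl2fastq 2.20.0.422 for demultiplexing. The aligner, counter and build used by the authors were not given in the sources used here.

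As deposited, the authors' raw table holds estimated counts per mature miRNA, which were rounded to whole numbers. The deposited CPM divide these by a total per library of which the listed miRNAs leave out 22.7 and 27.9% in Ptf1a-/-, against 17.05 and 16.3% in Ptf1a+/-. Per the file headers, the third table is text: the most frequent sequence per library, written against miRBase22.

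The 584 miRNAs that reached 10 counts in at least 2 libraries were fitted with edgeR 4.0.16 (R 4.3.3; quasi-likelihood F test, genotype as the only term, TMM factors 1.06 and 0.829 in Ptf1a-/- and 1.06 and 1.07 in Ptf1a+/-), with p-values adjusted by Benjamini-Hochberg and called under 0.05. The fit was tested on simulated data with a common spread for all miRNAs and both genotypes. The pairs here differ in spread, so that test does not cover this difference. Counting intervals are exact (Poisson per library; conditional binomial for ratios, Clopper-Pearson for shares, all 95%). Mature sequences and hairpins come from RefSeq (8 of 8 members matched), host genes from GENCODE M21. Named miRNAs are the 8 members, their partner arms, the fixed lists and the 3 miRNAs nearest in pattern to each tested member. The members and lists were chosen with earlier results of these data known. DESeq2 1.42.0 and limma 3.58.1 (pseudocount of 1) served as alternatives.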

Additional observations from a re-analysis of the deposited data

How the results depend on the processing

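The miR-200b-3p difference kept its direction in all 12 alternatives that could test it and its call in 10. It passed the count filter through the Ptf1a+/- libraries alone, and each alternative reuses the same counts, so a kept direction is no support. The calls kept include the fits without a Ptf1a-/- replicate, which take all their spread from the Ptf1a+/- pair. The call was lost with the pair summed (log2 fold change -3.48) and without Ptf1a+/- replicate 2 (-3.44). The filter of 50 counts removed miR-200b-3p, so no member was called lower there, and none was with the Ptf1a+/- pair summed (0 in each). Leaving out 1 library gave log2 fold changes of -4.49 to -2.78 for miR-200b-3p, -0.923 to -0.055 for miR-184-3p and 0.219 to 0.409 for miR-203-3p, with 0 to 2 members called lower and 0 to 1 higher. miR-203-3p changed sign with the totals behind the deposited CPM (-0.022) and with limma on the deposited CPM (-0.044), where all miRNAs had medians of -0.335 and -0.332. The limma scale, log2(CPM + 1), understates low miRNAs (-2.30 for miR-200b-3p).

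Over all miRNAs, 21 were lower and 36 higher. Lower and higher calls were 12 and 4 with library size as the only scaling (median of all miRNAs -0.177), 9 and 12 without a filter, 7 and 0 with limma, and 1 and 0 with the pair summed; with the deposited totals 27 were lower and 2 higher. DESeq2 called 17 lower and 43 higher, and miR-200b-3p among the lower (adjusted p = 0.0163). Leaving out 1 library gave 1 to 132 lower and 0 to 142 higher. The highest counts came without a Ptf1a-/- library, 122 and 140 without replicate 1 and 132 and 142 without replicate 2, where the spread comes from the Ptf1a+/- pair alone and the lone Ptf1a-/- library is assumed to vary like it. Without Ptf1a+/- replicate 1 they were 5 and 0, and without replicate 2 they were 1 and 0. Deviations of same-numbered libraries had a correlation of 0.0503 across miRNAs. The Ptf1a+/- pair differs by little more than read sampling, so this value cannot show whether the libraries were paired. With the replicate block 7 were lower and 5 higher, and miR-200b-3p stayed called (-3.45, edgeR adjusted p = 0.0359).

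Depth limits what can be said of miR-200c-3p, miR-200a-3p, miR-429-3p and miR-141-3p, which had at most 7 counts in a library.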
